A study of Gallus gallus with 12 samples.

Results

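The genes described here are those of sterol and fatty acid synthesis and its control by the sterol regulatory element-binding proteins (SREBPs), chosen by gene symbol from a list of 31. The list was chosen with earlier results of these data known, so its counts beside those of all genes are description only. Of the 31 symbols, 28 named a row among the 30742 genes of the deposited table, and IDI1, EBP and FADS1 did not. The 28 fall into 4 roles: 6 genes of the mevalonate steps, 9 of the squalene and sterol steps, 6 of SREBP control and sterol transfer, and 7 of fatty acid synthesis and desaturation. All 28 had enough reads to be tested in every comparison.

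The study measured RNA by sequencing in White Leghorn chicken embryos on embryonic day 18, in tissue labelled hypothalamus or whole brain. ETM embryos (embryonic thermal manipulation) were incubated at 39.5 °C from embryonic day 13 to day 18, and CT (control) embryos were kept at 37.8 °C throughout. The 4 groups were ETM hypothalamus, CT hypothalamus, ETM whole brain and CT whole brain, with 3 libraries each and 1 batch label for all 12. The labels name no transgene, mutation or drug in any group and leave unsaid whether a library held 1 embryo or several. A p-value here therefore covers the spread among libraries, which may be partly technical.

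Animal cells build cholesterol from acetyl-CoA by way of mevalonate, isoprenoid diphosphates, squalene and lanosterol, and build saturated and monounsaturated fatty acids from the same acetyl-CoA by way of malonyl-CoA. In mammals the SREBPs, which SCAP carries out of the endoplasmic reticulum when sterols are low and the INSIG proteins hold back when they are high, switch on most of these genes together. The brain makes its own cholesterol, since lipoproteins of the blood do not cross its barrier, and much of it goes into myelin.

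Library totals ranged from 13309467 to 18317019 counts. Levels are given as CPM, the counts scaled to library size with TMM over the 12 libraries, and library numbers follow the labels. Counts of W-linked genes exceeded 0.05% of the total in ETM hypothalamus library 2, CT hypothalamus library 3 and ETM whole brain library 1, and lay between 0.0105% and 0.0174% in the other 9. Of 12 hypothalamus markers, 3 were called higher and 7 lower in CT hypothalamus than in CT whole brain. Of all tested genes, 16.7% were called higher and 17.6% lower in that comparison. In ETM embryos 3 of the 12 markers were higher and 5 lower in hypothalamus, where 29.3% of all genes were higher and 29.6% lower. The 12 summed to 86.0 to 124 CPM in ETM hypothalamus and 98.6 to 115 CPM in ETM whole brain. They summed to 95.3 to 114 CPM in CT hypothalamus and 146 to 169 CPM in CT whole brain. NKX2-1, the homeobox gene of the ventral forebrain, was at 0, 1.24 and 0 CPM in the ETM libraries labelled hypothalamus and 0, 0 and 0.138 CPM in the CT ones. It was at 5.12, 5.49 and 4.89 CPM in ETM whole brain and 4.86, 6.53 and 5.46 CPM in CT whole brain, so the tissue label is used below as a name only. For ETM hypothalamus library 1 the deposited FPKM column and the deposited counts did not describe the same values. Counts were used throughout, and calls lost when reads recovered from the FPKM column take their place are named beside the results.

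The 28 genes spanned a wide range of expression per unit of gene length. On the RPKM scale (CPM per kilobase of gene, computed here from the counts), averaged over all 12 libraries, FADS2, a desaturase of polyunsaturated fatty acids, was highest at 172. HMGCS1, the cytosolic synthase that makes HMG-CoA, averaged 130.4 and FDPS, farnesyl diphosphate synthase, 128. The order of these differed by group: HMGCS1 and FDPS were at 88.0 and 133 RPKM in ETM hypothalamus, 132 and 152 in CT hypothalamus, 157 and 92.5 in ETM whole brain, and 144 and 133 in CT whole brain. The lowest averages were those of INSIG2 at 15.8, ACSS2 at 16.2 and INSIG1 at 16.4 RPKM. All 28 were detected in every library.

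The title of the series asks how thermal manipulation affects gene expression in brain tissue, which was tested here within each tissue. In whole brain, 15 of the 28 genes were lower and 3 were higher in ETM than in CT embryos. In 3 of the 4 roles most genes were lower: 4 of 6 in the mevalonate steps, 4 of 6 in SREBP control and 4 of 7 in fatty acid synthesis. The squalene and sterol steps were mixed, with 3 of 9 lower and 1 higher. SREBF1, SREBF2 and SCAP were among the genes that fell, while INSIG2 and the sterol demethylase MSMO1 rose. The test was edgeR's quasi-likelihood test with Benjamini-Hochberg adjustment over 15305 genes, called at an adjusted p below 0.05, and it called 44.3% of all tested genes, 21.1% higher and 23.2% lower. The median log2 fold change of the 28 genes was −0.39, against 0.01 over all genes tested. The libraries of the groups did not overlap for 4 genes higher and 16 lower in ETM whole brain, while over all tested genes this was so for 56.5%, 30.5% higher and 26% lower. In these bulk libraries fewer cells of a type and less RNA per cell cannot be told apart.

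**Figure D1:**
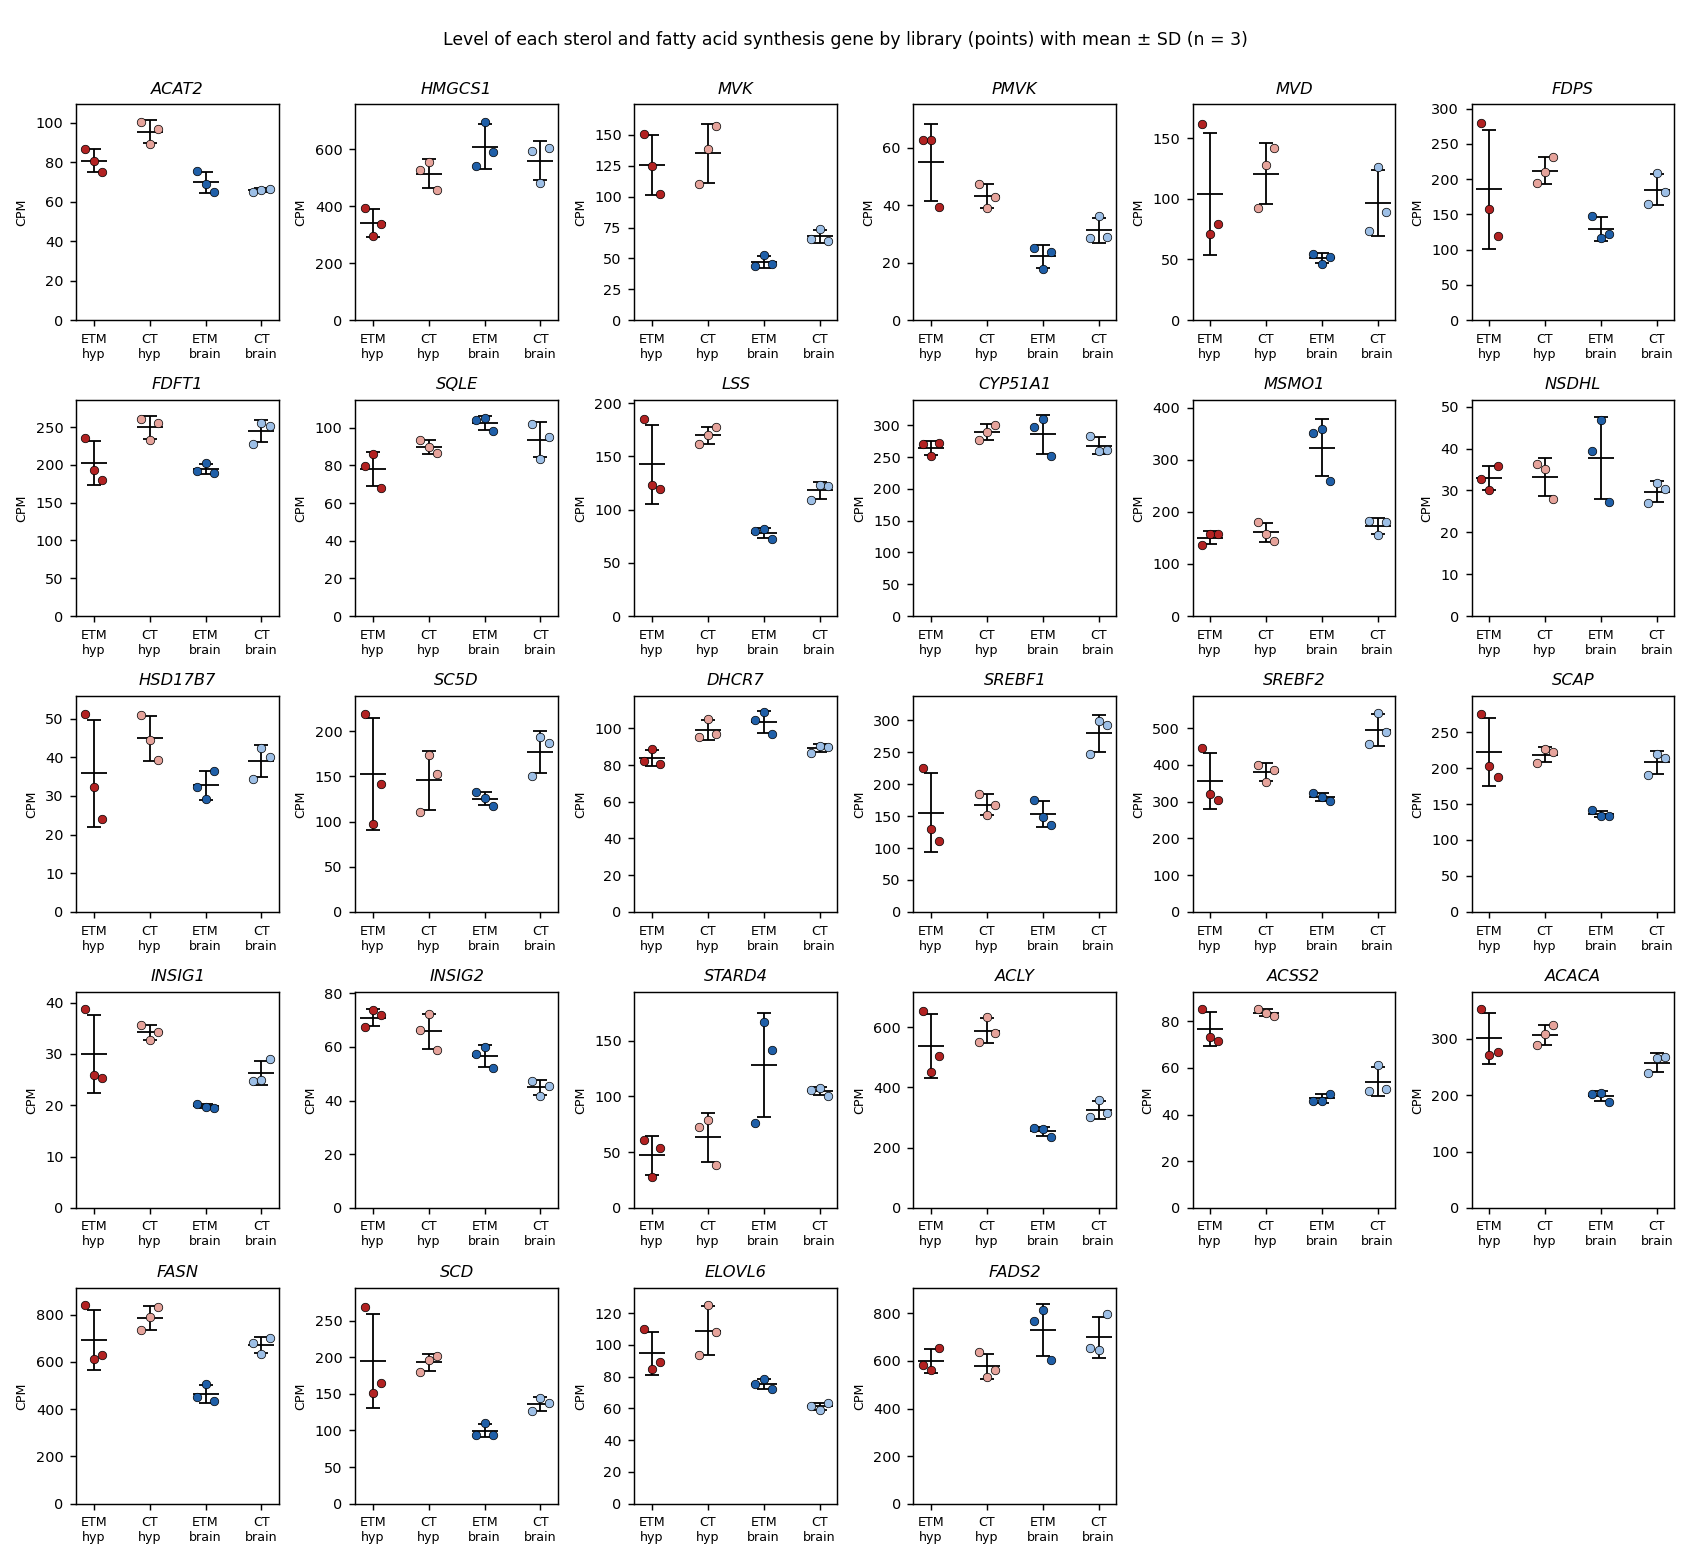
Level of each of the 28 genes in CPM (vertical axis, from 0) in the 4 groups: ETM hypothalamus, CT hypothalamus, ETM whole brain and CT whole brain. Points are libraries and bars are mean ± SD (n = 3). In whole brain the ETM points of SREBF1, SREBF2, SCAP and FASN lie below all CT points, those of MSMO1 lie above them, and in hypothalamus the ETM points of HMGCS1 lie below all CT points.

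In the mevalonate steps MVK, PMVK, MVD and FDPS were lower in ETM whole brain, and ACAT2 and HMGCS1 were not called. The 4 lower genes lie on chromosomes 11, 15 and 25, and the 2 others on chromosomes 3 and Z. MVD, the decarboxylase that makes isopentenyl diphosphate, had 54.8, 46.2 and 52.2 CPM in ETM whole brain, against 73.4, 126 and 89.0 CPM in CT whole brain. Every ETM library lay below every CT library, CT library 2 was the highest, and the log2 fold change was −0.95 ± 0.17 (SE, adjusted p = 0.00117). MVK, mevalonate kinase, had 43.7, 52.5 and 45.3 CPM in ETM whole brain, against 65.9, 73.8 and 64.2 CPM in CT whole brain (−0.57 ± 0.09, adjusted p = 0.000881). FDPS had 148, 116 and 122 CPM in ETM whole brain, against 165, 209 and 182 CPM in CT whole brain (−0.56 ± 0.11, adjusted p = 0.00254). The groups did not overlap for either gene. PMVK, the kinase that acts after MVK, had 25.1, 17.7 and 23.9 CPM in ETM whole brain, against 28.5, 36.3 and 29.1 CPM in CT whole brain (−0.53 ± 0.15, adjusted p = 0.0143), also without overlap, but without CT whole brain library 2 its adjusted p was 0.053. ACAT2, the thiolase that joins acetyl-CoA units, measured 0.04 ± 0.08, and HMGCS1, with 542, 694 and 591 CPM in ETM whole brain and 594, 479.6 and 604 CPM in CT whole brain, measured 0.08 ± 0.11 (adjusted p = 0.587), with groups that overlapped.

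Among the squalene and sterol steps, MSMO1, which removes methyl groups from the sterol ring, showed the largest positive change of the 28 genes. It had 351, 360.0 and 260.1 CPM in ETM whole brain, against 183, 156 and 179.9 CPM in CT whole brain. All ETM libraries were above all CT libraries, with a log2 fold change of 0.86 ± 0.12 (adjusted p = 0.000368). The gene lies on the plus strand of chromosome 4 at 23327107 to 23333445 (build GRCg7b).

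LSS, which closes squalene epoxide into lanosterol, went the other way, with 79.7, 81.5 and 72.6 CPM in ETM whole brain, against 109, 123 and 122 CPM in CT whole brain (−0.64 ± 0.08, adjusted p = 0.000266). SC5D, a desaturase near the end of the pathway, had 132, 126 and 117 CPM in ETM whole brain, against 150.2, 193 and 187 CPM in CT whole brain (−0.54 ± 0.10, adjusted p = 0.00169). FDFT1, squalene synthase, had 192, 202 and 189 CPM in ETM whole brain, against 228, 255 and 252 CPM in CT whole brain (−0.37 ± 0.07, adjusted p = 0.00248). For these 3 genes no ETM library reached the lowest CT library. The remaining 5 genes of the role were not called. SQLE, squalene epoxidase, measured 0.09 ± 0.09 and CYP51A1, the lanosterol demethylase, 0.05 ± 0.09. DHCR7, which makes cholesterol from its last precursor, had 105, 109 and 97.1 CPM in ETM whole brain, against 86.6, 90.6 and 89.9 CPM in CT whole brain, and its groups did not overlap although the test did not call it (0.17 ± 0.08, adjusted p = 0.0838). NSDHL, which acts beside MSMO1 in removing the methyl groups, measured 0.30 ± 0.16 (adjusted p = 0.16), with ETM libraries that spread from 27.2 to 46.7 CPM. HSD17B7, the reductase of the same complex, measured −0.29 ± 0.12 (adjusted p = 0.064).

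Both SREBP genes were lower in ETM whole brain, and so was their escort SCAP. SREBF1, whose product in mammals mainly drives fatty acid genes, had 175, 149 and 136 CPM in ETM whole brain, against 247, 299 and 293 CPM in CT whole brain. The highest ETM library was below the lowest CT library, and the log2 fold change was −0.91 ± 0.11 (adjusted p = 0.000191). SREBF2, whose product in mammals mainly drives sterol genes, had 323, 312 and 303 CPM in ETM whole brain, against 457, 541 and 488 CPM in CT whole brain (−0.71 ± 0.08, adjusted p = 0.000152). SCAP had 141, 133 and 134 CPM in ETM whole brain, against 190.1, 219.6 and 214 CPM in CT whole brain (−0.65 ± 0.08, adjusted p = 0.000214). Neither gene had overlapping groups, and the calls of SREBF1, SREBF2 and SCAP stood under all 14 alternatives tried. SREBF1 lies on chromosome 14 at 4914681 to 4925730, SREBF2 on chromosome 1 at 49531773 to 49550286 and SCAP on chromosome 2 at 920467 to 971114 (GRCg7b).

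The 2 INSIG genes, whose products retain SCAP, moved in opposite directions. INSIG1 had 20.3, 19.6 and 19.5 CPM in ETM whole brain, against 24.8, 25.0 and 28.9 CPM in CT whole brain (−0.45 ± 0.11, adjusted p = 0.0065). INSIG2 had 57.5, 60.1 and 52.0 CPM in ETM whole brain, against 47.4, 41.9 and 45.6 CPM in CT whole brain (0.29 ± 0.09, adjusted p = 0.0246). Each gene's groups did not overlap, INSIG1 being lower and INSIG2 higher in every ETM library. The INSIG2 call was lost without CT whole brain library 2 (adjusted p = 0.0764) or 3 (0.0701), or without ETM whole brain library 1 (0.0666) or 2 (0.0900). Summed over the 6 genes of the role, the libraries held 786 to 840.4 CPM in ETM whole brain, against 1072 to 1234 CPM in CT whole brain.

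In fatty acid synthesis the central enzymes were lower. FASN, fatty acid synthase, had 451, 505 and 435 CPM in ETM whole brain, against 682, 632 and 699 CPM in CT whole brain (−0.58 ± 0.08, adjusted p = 0.000341). SCD, the desaturase that makes oleate, had 94.4, 110.1 and 94.2 CPM in ETM whole brain, against 126, 145 and 138 CPM in CT whole brain (−0.50 ± 0.09, adjusted p = 0.0012). ACACA, the carboxylase that makes malonyl-CoA, had 202, 204 and 188 CPM in ETM whole brain, against 239, 267 and 268 CPM in CT whole brain (−0.42 ± 0.08, adjusted p = 0.00144). In all 3 the ETM libraries lay below the CT libraries. ACLY, which frees acetyl-CoA from citrate, had 265, 261 and 236 CPM in ETM whole brain, against 302, 359 and 317 CPM in CT whole brain (−0.40 ± 0.09, adjusted p = 0.00341), again without overlap. ELOVL6, which lengthens palmitate, was the exception, with 75.6, 78.3 and 72.3 CPM in ETM whole brain, against 61.8, 59.0 and 63.3 CPM in CT whole brain (0.26 ± 0.08, adjusted p = 0.0206). All ETM libraries exceeded all CT libraries, yet the call was lost without CT whole brain library 2 (adjusted p = 0.0547) or 3 (0.0533), or without ETM whole brain library 1 (0.0539) or 2 (0.0734). ACSS2, which makes acetyl-CoA from acetate, did not overlap between the groups and was not called (−0.25 ± 0.10, adjusted p = 0.0592), and FADS2 measured 0.02 ± 0.12.

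**Figure D2:**
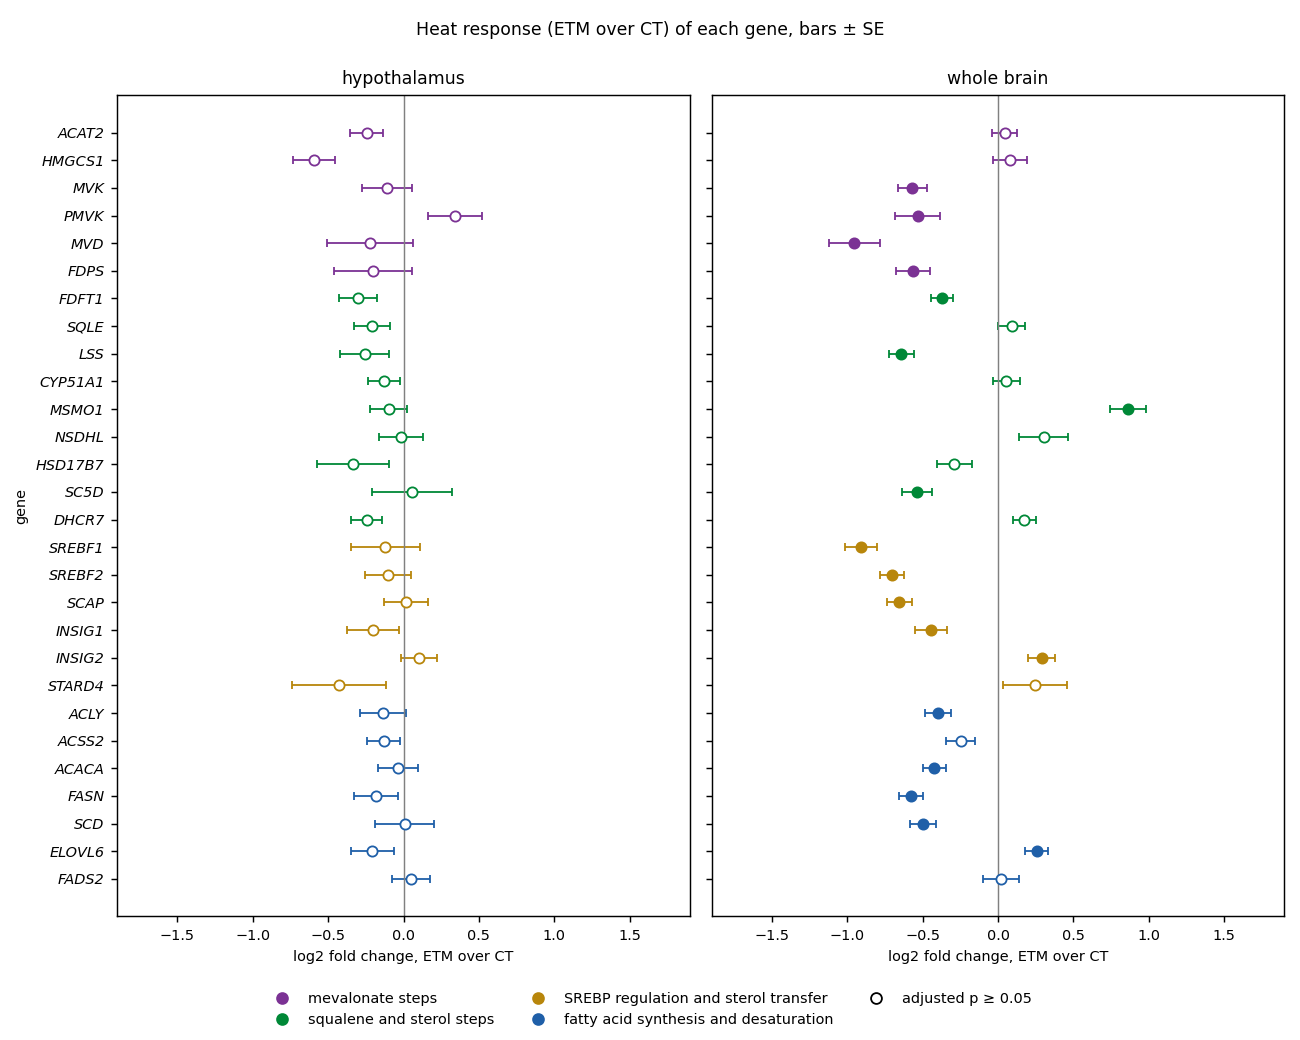
Log2 fold change of ETM over CT (horizontal axis) for each of the 28 genes in hypothalamus (left) and whole brain (right), with bars of ± 1 SE. Filled points have an adjusted p below 0.05, open points do not, and colours mark the 4 roles. In whole brain 15 filled points lie below 0 and 3 above it, while no point is filled in hypothalamus.

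The calls varied with the fit and the library. In 1 fit of all 12 libraries 2 genes were higher and 11 lower, with PMVK, FDPS, SC5D, SCD and ELOVL6 no longer called. Without CT whole brain library 2 or 3, or without ETM whole brain library 2, MSMO1 was the 1 gene called higher, and 14 to 15 genes were lower. In whole brain the change of a gene also went with its chromosome. Of all tested genes on chromosomes 11 to 39, most of them microchromosomes, 38.4% were lower and 11.6% higher in ETM, with a median of −0.25, while of those elsewhere 15.1% were lower and 26.2% higher, with a median of 0.13. Of the 28 genes, 10 lie on chromosomes 11 to 39, and 9 of these were lower and none higher, with a median of −0.55. The other 18 lie on chromosomes 1 to 10 and Z, and 6 were lower and 3 higher, with a median of 0.05. With each chromosome class scaled on its own, an alternative chosen after the data were seen, 13 genes were lower and 1 higher. MSMO1 stayed higher, 12 of the 15 lower genes kept their call, HSD17B7 was added, and PMVK, ACLY, ACACA, INSIG2 and ELOVL6 lost theirs. MVK (−0.32), FDPS (−0.32), SC5D (−0.29) and FASN (−0.33) kept their calls with smaller fold changes. The part of chromosome class in these changes was not tested beyond this.

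**Figure D3:**
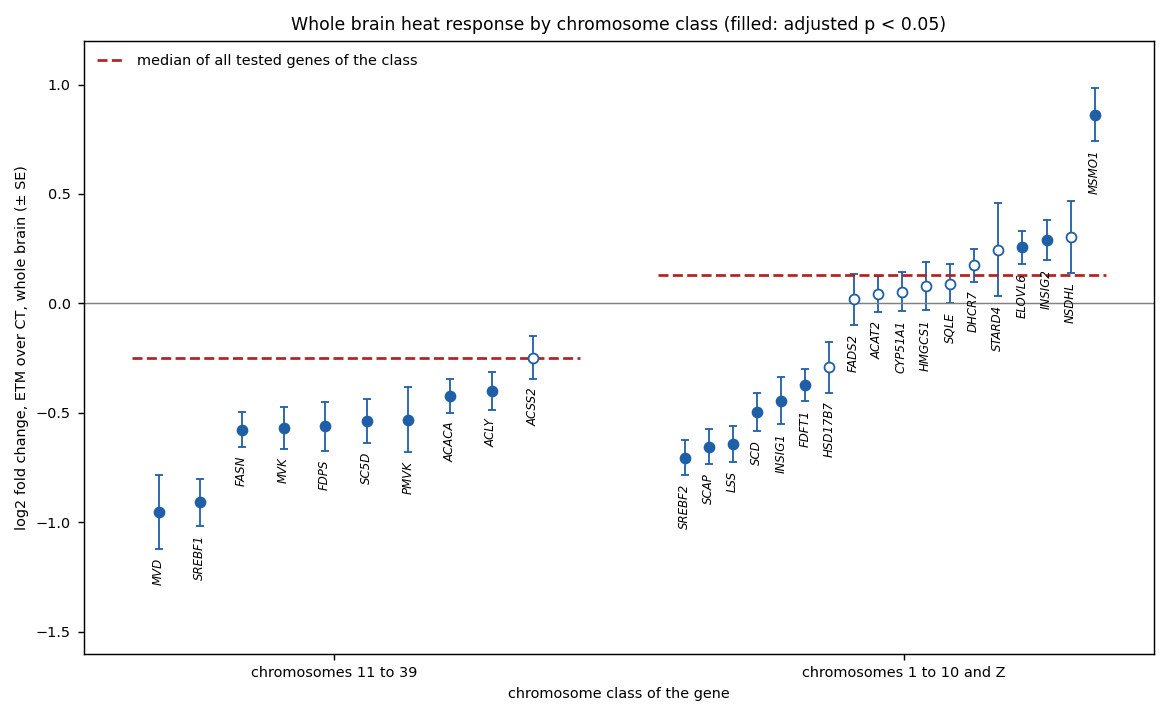
Log2 fold change of ETM over CT in whole brain (vertical axis, bars ± 1 SE) for the 10 genes on chromosomes 11 to 39 (left) and the 18 on chromosomes 1 to 10 and Z (right), in order of size. Filled points have an adjusted p below 0.05, and dashed red lines are the medians of all tested genes, −0.25 for chromosomes 11 to 39 and 0.13 for all other sequences. On the left 9 points are filled, all below 0, and on the right 6 are filled below and 3 above 0.

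Cell type markers in whole brain were counted by list, where 21.1% of all tested genes were called higher and 23.2% lower in ETM. Of 11 tested oligodendrocyte and myelin markers 6 were lower and 1 higher, and the list summed to 3816 to 5051 CPM in ETM whole brain, against 3869 to 6096 CPM in CT whole brain. Log2 fold changes of the 11 were negative for 8 and positive for 3, with a median of −0.46. OLIG2, a transcription factor of the oligodendrocyte lineage, measured −1.01 ± 0.08 (adjusted p = 5.65e-05). MBP, a major myelin protein, had 1772, 2193 and 1519 CPM in ETM whole brain, against 1213, 1722 and 1545 CPM in CT whole brain. Of 7 fibroblast and meningeal markers 4 were lower and 1 higher, with sums of 689.6 to 795 CPM in ETM and 1537 to 1726 CPM in CT whole brain. Of 6 microglia markers 4 were lower and none higher, with sums of 37.2 to 41.2 CPM in ETM and 58.8 to 60.0 CPM in CT whole brain, and of 6 red blood cell markers 4 were lower and none higher, with sums of 265 to 562 CPM in ETM and 612 to 865 CPM in CT whole brain. Of 10 neuron markers 6 were higher and 3 lower, with sums of 7910.1 to 8910.4 CPM in ETM and 7591 to 7835 CPM in CT whole brain, and of 9 astrocyte markers 2 were higher and 1 lower, with sums of 3329 to 3906 CPM in ETM and 3294.2 to 3739 CPM in CT whole brain. Of 8 tested choroid plexus markers 2 were higher and none lower, with sums of 1245 to 1814 CPM in ETM and 792 to 1223 CPM in CT whole brain. Log2 fold changes of the 8 were positive for 3 and negative for 5, with a median of −0.19. TTR made up most of these sums, with 1686, 1344 and 1117 CPM in ETM whole brain, against 1020, 686 and 1102 CPM in CT whole brain. Of 10 endothelial and mural markers 3 were lower and 1 higher, with sums of 283 to 308 CPM in ETM and 323 to 344 CPM in CT whole brain. Of 9 cell division markers 5 were lower and none higher, with sums of 306 to 365 CPM in ETM and 418 to 452 CPM in CT whole brain. Of these lists' genes found in the table, MAL, a myelin protein, was at 0 in 1 of the 12 libraries and CX3CR1, a microglial receptor, in 5. The part of these cell types in the changes of the 28 genes was not tested.

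In hypothalamus none of the 28 genes was called in either direction by edgeR's quasi-likelihood test, which called 0.0454% of 15405 genes, 0.0389% higher and 0.00649% lower. Of the 28, 4 had an unadjusted p below 0.05 in that test, as did 1594 of the 15405 genes. DESeq2 called 1 of the 28, HMGCS1, and 187 of all genes. Log2 fold changes were negative for 22 genes and positive for 6, with a median of −0.13, against 0.01 over all genes tested. They ran from −0.59 for HMGCS1 to 0.34 for PMVK. No cell type marker was called there either.

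HMGCS1 was the gene with the lowest p. It had 392, 296 and 337 CPM in ETM hypothalamus, against 527, 557 and 457 CPM in CT hypothalamus. Every ETM library was below every CT library, with a log2 fold change of −0.59 ± 0.14 that did not pass in edgeR's quasi-likelihood test (adjusted p = 0.204) and did in DESeq2 (adjusted p = 0.00993). The groups also did not overlap, with ETM lower, for ACAT2, SQLE, CYP51A1 and DHCR7, none of them called. That makes 5 of 28 genes without overlap in the lower direction and none in the higher, where 16.1% of all tested genes had no overlap, 7.75% lower and 8.39% higher. All 5 belong to the mevalonate or the squalene and sterol steps, which hold 6 and 9 of the 28 genes. Besides HMGCS1, their log2 fold changes were −0.25 ± 0.11 for ACAT2, −0.21 ± 0.12 for SQLE, −0.13 ± 0.11 for CYP51A1 and −0.25 ± 0.11 for DHCR7.

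The SREBP genes showed wide spread in hypothalamus. SREBF1 had 226, 129 and 111 CPM in ETM hypothalamus, against 185, 151 and 168 CPM in CT hypothalamus (−0.12 ± 0.23, adjusted p = 0.902). SREBF2 had 445, 319.8 and 305 CPM in ETM hypothalamus, against 401, 355 and 387 CPM in CT hypothalamus (−0.10 ± 0.15, adjusted p = 0.873). For both genes ETM library 1 was the highest of the 6 libraries and ETM libraries 2 and 3 were the lowest. INSIG1 had 38.7, 25.8 and 25.3 CPM in ETM hypothalamus, against 35.6, 32.8 and 34.3 CPM in CT hypothalamus (−0.20 ± 0.17, adjusted p = 0.74), in the same order. INSIG2 had 67.3, 73.7 and 71.9 CPM in ETM hypothalamus, against 66.4, 72.2 and 59.0 CPM in CT hypothalamus (0.10 ± 0.12, adjusted p = 0.819). SCD had 269, 151 and 165 CPM in ETM hypothalamus, against 179.7, 196 and 202 CPM in CT hypothalamus (0.01 ± 0.20, adjusted p = 0.994), with ETM library 1 above and ETM libraries 2 and 3 below all CT libraries.

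ETM hypothalamus library 1 was the highest of its group for 21 of the 28 genes and the lowest for 2. Ranks were also uneven in whole brain. ETM library 3 was the lowest there for 19 genes, CT library 1 the lowest for 18 and CT library 2 the highest for 17. ETM hypothalamus library 1 is also the library whose FPKM column did not match its counts. Reads recovered from that column gave 242 CPM for HMGCS1 where the counts gave 392, and 294 CPM for SREBF1 where the counts gave 226. With the recovered reads in place of the counts, none of the 28 genes was called in hypothalamus either, and the fold changes of SREBF1 (0.07) and SREBF2 (0.13) turned positive. Which of the columns describes the library was not settled here.

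Whether heat acted differently in the 2 tissues was tested as an interaction in 1 fit of all 12 libraries, the hypothalamus response minus the whole brain response. Of the 28 genes 7 were called, 3 with a positive and 4 with a negative difference, while 24.2% of 16201 genes were called, 11.9% positive and 12.3% negative, so the share among the 28 was near that of all genes. The median difference was 0.15, against −0.03 over all genes.

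MSMO1 had the largest difference, −1.001 ± 0.18 (adjusted p = 0.0037, edgeR's quasi-likelihood test). In hypothalamus it had 137, 157 and 158 CPM in ETM libraries, against 180.5, 158 and 144 CPM in CT libraries, with overlapping groups, while in whole brain the ETM libraries were higher. Its call stood under all 20 alternatives tried. HMGCS1 differed by −0.71 ± 0.19 (adjusted p = 0.0174), DHCR7 by −0.46 ± 0.12 (adjusted p = 0.0139) and ELOVL6 by −0.50 ± 0.17 (adjusted p = 0.0449). The log2 fold changes of these 4 genes were negative in hypothalamus and positive in whole brain. They were −0.10 and 0.86 for MSMO1, −0.59 and 0.08 for HMGCS1, −0.25 and 0.17 for DHCR7, and −0.21 and 0.26 for ELOVL6. None of the 4 was called in hypothalamus, and MSMO1 and ELOVL6 were called in whole brain. DHCR7 had 82.1, 88.7 and 80.6 CPM in ETM hypothalamus, against 95.0, 105 and 97.1 CPM in CT hypothalamus, and ELOVL6 had 110.2, 84.6 and 89.5 CPM in ETM hypothalamus, against 93.7, 125 and 108 CPM in CT hypothalamus.

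The positive differences were those of genes that fell in whole brain. SCAP differed by 0.63 ± 0.18 (adjusted p = 0.0209) and SREBF2 by 0.57 ± 0.18 (adjusted p = 0.0374). PMVK differed by 0.84 ± 0.26 (adjusted p = 0.0326), with 62.6, 62.6 and 39.4 CPM in ETM hypothalamus, against 47.4, 39.02 and 42.9 CPM in CT hypothalamus. SREBF1 was close to these in size but not called (0.75 ± 0.29, adjusted p = 0.078). Of the 7 calls, that of MSMO1 held under all 20 alternatives run. Of 20 alternatives, the call was lost in 14 for ELOVL6, in 10 for SREBF2, in 9 for PMVK, and in 3 each for HMGCS1, DHCR7 and SCAP. With 1 library left out, ELOVL6 was called only without CT hypothalamus library 1 or ETM hypothalamus library 1 (adjusted p up to 0.119 without another). SREBF2 was not called without CT hypothalamus library 1 or 2, CT whole brain library 2 or 3, or any 1 ETM whole brain library (adjusted p from 0.0513 to 0.0799). PMVK was not called without ETM hypothalamus library 1 or 2, CT hypothalamus library 2, or library 2 of either whole brain group (adjusted p from 0.0615 to 0.0849). HMGCS1 (adjusted p = 0.0503) and SCAP (0.0539) were not called without ETM whole brain library 2. With the recovered reads for ETM hypothalamus library 1, PMVK (0.0523), SREBF2 (0.0894) and SCAP (0.0641) were not called. With chromosome classes scaled separately, SREBF2 and SCAP were called positive and MSMO1 was the 1 negative call.

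HMGCS1 and STARD4 are the 2 genes of the set on chromosome Z, of which male birds carry a pair and females a single copy with a W. HMGCS1 lies there at 14189659 to 14199584 and STARD4, a carrier of cholesterol between membranes, at 47183482 to 47192331 (GRCg7b). STARD4 had 61.1, 27.7 and 53.3 CPM in ETM hypothalamus, against 72.6, 78.8 and 38.2 CPM in CT hypothalamus. It had 76.0, 167 and 142 CPM in ETM whole brain, against 106, 108 and 101 CPM in CT whole brain. In each of the 3 groups with a library of high W-linked share, that library had the lowest STARD4 and the lowest HMGCS1, which held for no other gene of the 28. With all libraries STARD4 was not called in whole brain (0.25 ± 0.21, adjusted p = 0.375). Without ETM whole brain library 1 it was higher in ETM, by 0.51 (adjusted p = 0.00247), and HMGCS1 measured 0.15 there (adjusted p = 0.317). Without the 3 libraries the interaction of STARD4 was −0.97 (adjusted p = 0.0122) and that of HMGCS1 −0.78 (adjusted p = 0.0263). The 3 groups held 1 such library each and CT whole brain none.

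The design also allows the tissues to be compared. The difference was tested in ETM embryos and in CT embryos in the fit of all 12 libraries, and since these contrasts share libraries with the heat contrasts, values are given side by side only. In ETM embryos 13 of the 28 genes were higher and 5 lower in hypothalamus than in whole brain, where 58.9% of all genes were called, 29.3% higher and 29.6% lower. In CT embryos 8 were higher and 2 lower, where 34.3% of all genes were called, 16.7% higher and 17.6% lower. The median log2 difference of the 28 genes was 0.31 in ETM and 0.20 in CT embryos, against 0.01 over all genes in each. The tissues' libraries did not overlap for 13 genes higher and 5 lower in ETM embryos, where this held for 63.5% of all genes, 31% higher and 32.6% lower. In CT embryos it held for 13 higher and 4 lower, where the share of all genes was 49.3%, 24.1% higher and 25.1% lower. In ETM embryos the tissue difference also went with chromosome. Of all tested genes on chromosomes 11 to 39, 43.2% were higher and 18.7% lower in hypothalamus, as were 7 and 0 of the 10 members there. Of those elsewhere 21.9% were higher and 35.5% lower, as were 6 and 5 of the 18 members. The part of chromosome class was not tested beyond the separate scaling.

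Fatty acid genes were the role most often higher in hypothalamus, 6 of 7 in ETM and 4 of 7 in CT embryos. Of all tested genes 29.3% were higher in ETM and 16.7% in CT embryos. ACLY, ACSS2, ACACA and FASN lie on chromosomes 27, 20, 19 and 18, in the class where 43.2% of all genes were higher in ETM embryos. SCD and ELOVL6 lie on chromosomes 6 and 4, in the class where 21.9% were. ACLY had 655, 452 and 504 CPM in ETM hypothalamus, against 265, 261 and 236 CPM in ETM whole brain, and 551, 635 and 580.2 CPM in CT hypothalamus, against 302, 359 and 317 CPM in CT whole brain. Its log2 difference was 1.08 ± 0.13 in ETM embryos (adjusted p = 1.12e-05) and 0.85 ± 0.13 in CT embryos (adjusted p = 0.000201), with no overlap in either. ACSS2 measured 0.71 ± 0.10 in ETM and 0.63 ± 0.10 in CT embryos, ELOVL6 0.33 ± 0.12 in ETM and 0.83 ± 0.12 in CT embryos, and SCD 0.97 ± 0.17 in ETM and 0.50 ± 0.17 in CT embryos. The ELOVL6 call in ETM embryos (adjusted p = 0.0287) was lost with the recovered reads (0.12, adjusted p = 0.429), without ETM hypothalamus library 1 (0.22, adjusted p = 0.109) and without ETM whole brain library 1 (adjusted p = 0.0676), 2 (0.0516) or 3 (0.0916). The SCD call in CT embryos (adjusted p = 0.0378) was lost when any 1 of the 6 CT libraries was left out, without ETM whole brain library 3 (adjusted p = 0.0503) and with the recovered reads (0.0671). In ETM embryos SCD was called under all 20 alternatives, at 0.68 to 1.12 with 1 library left out. The interaction of SCD was not called (0.47 ± 0.24, adjusted p = 0.175). FASN and ACACA were called in ETM embryos, at 0.58 ± 0.12 and 0.60 ± 0.11, and not in CT embryos, at 0.23 ± 0.12 and 0.25 ± 0.11. The interaction was called for neither FASN (0.36 ± 0.17, adjusted p = 0.139) nor ACACA (0.35 ± 0.15, adjusted p = 0.103). With chromosome classes scaled separately, the ETM values were 0.29 for FASN, 0.31 for ACACA and 0.42 for ACSS2, still called.

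In the mevalonate steps MVK was higher in hypothalamus in both sets, by 1.41 ± 0.15 in ETM (adjusted p = 5.37e-06) and 0.99 ± 0.15 in CT embryos (adjusted p = 0.00024). It had 151, 125 and 102 CPM in ETM hypothalamus and 110.0, 138 and 157 CPM in CT hypothalamus, more than in any whole brain library. PMVK measured 1.30 ± 0.19 in ETM embryos (called) and 0.46 ± 0.18 in CT embryos (adjusted p = 0.0658), and MVD 1.02 ± 0.28 in ETM (called) and 0.33 ± 0.28 in CT embryos (not called). Without ETM hypothalamus library 1, whose 162 CPM stood above the other two, MVD measured 0.57 in ETM embryos (adjusted p = 0.0353). ACAT2 was called in CT embryos, at 0.54 ± 0.09, and not in ETM embryos, at 0.21 ± 0.09 (adjusted p = 0.0591). The interaction was called for neither ACAT2 (−0.32 ± 0.13, adjusted p = 0.0792) nor MVD (0.70 ± 0.39, adjusted p = 0.213). HMGCS1 was lower in hypothalamus in ETM embryos, at −0.83 ± 0.13 (adjusted p = 0.000141), and measured −0.12 ± 0.13 in CT embryos.

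Sterol and control genes split by direction. LSS was higher in hypothalamus in both sets, at 0.87 ± 0.14 in ETM and 0.53 ± 0.14 in CT embryos, and so was INSIG2, at 0.33 ± 0.10 in ETM and 0.55 ± 0.10 in CT embryos. The INSIG2 call in ETM embryos was lost with the recovered reads (0.22, adjusted p = 0.199), without ETM whole brain library 3 (adjusted p = 0.0590) and without the libraries of high W-linked share (0.0576). MSMO1 was lower in hypothalamus in ETM embryos, at −1.10 ± 0.13 (adjusted p = 1.10e-05), and measured −0.10 ± 0.13 in CT embryos, where the groups overlapped. SQLE (−0.39 ± 0.10), DHCR7 (−0.30 ± 0.08) and STARD4 (−1.44 ± 0.33) were also lower in ETM embryos, SQLE (−0.20) and DHCR7 (−0.11) losing their calls with chromosome classes scaled separately. SCAP (0.71 ± 0.12) and INSIG1 (0.59 ± 0.15) were higher there, INSIG1 by 0.38 without ETM hypothalamus library 1. The interaction was not called for SQLE (adjusted p = 0.108), STARD4 (0.27) or INSIG1 (0.491). The SREBP genes were the 2 lower ones in CT embryos, SREBF1 at −0.73 ± 0.21 (adjusted p = 0.0148) and SREBF2 at −0.38 ± 0.13 (adjusted p = 0.0354), and measured 0.02 ± 0.21 and 0.19 ± 0.13 in ETM embryos. Both calls were lost without CT hypothalamus library 2 (adjusted p = 0.0507 for SREBF1 and 0.0959 for SREBF2), and that of SREBF2 also without CT hypothalamus library 3 (0.0589), CT whole brain library 2 (0.0953) or CT whole brain library 3 (0.0636). Both were also lost with the recovered reads (adjusted p = 0.0778 for SREBF1 and 0.237 for SREBF2).

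**Figure D4:**
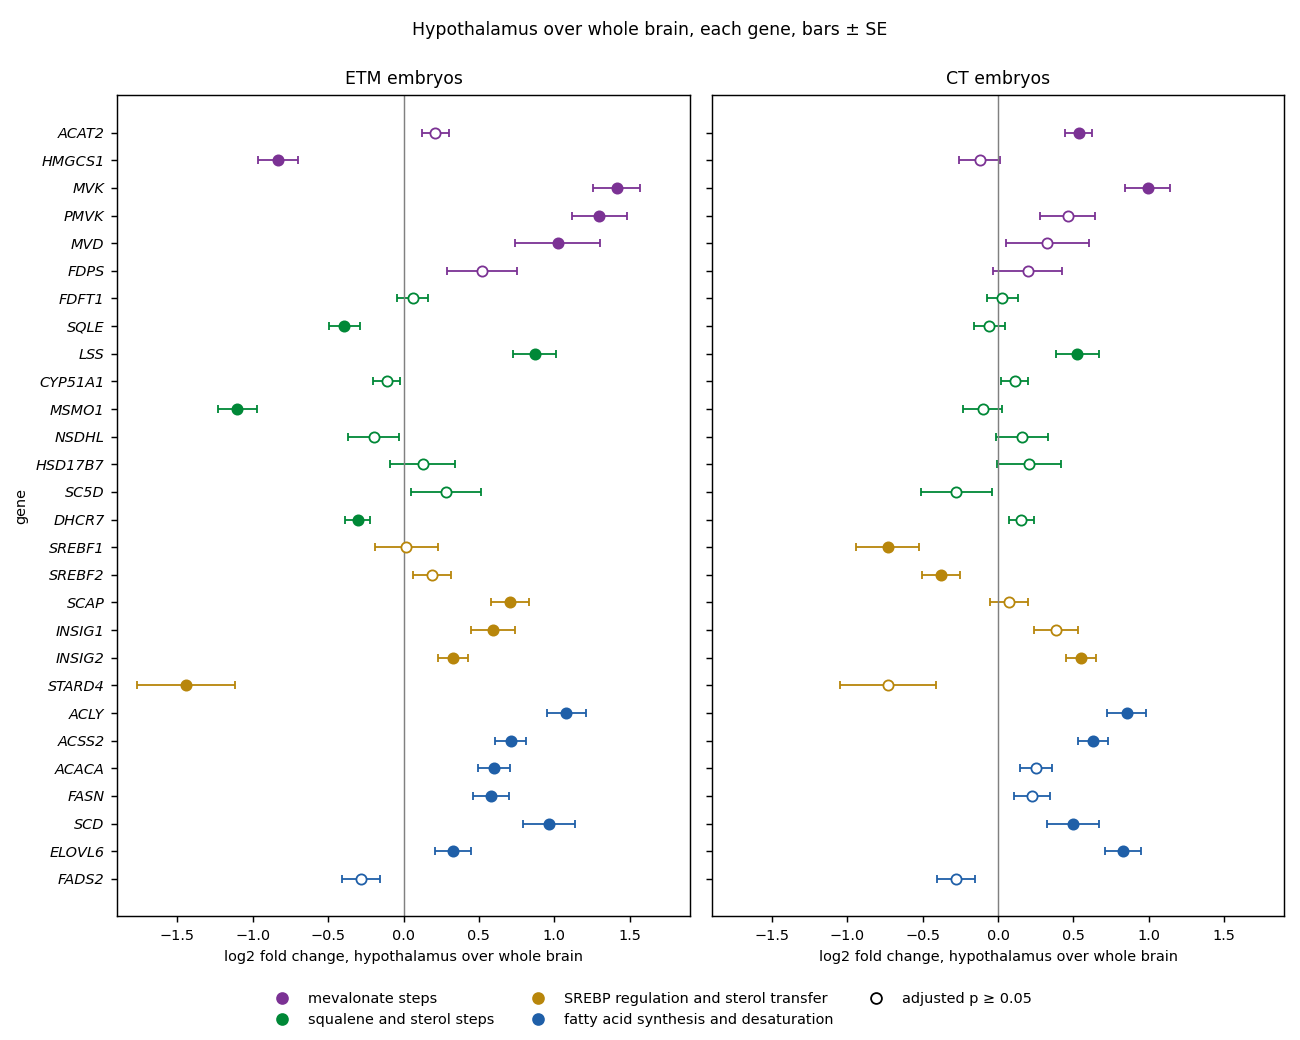
Log2 fold change of hypothalamus over whole brain (horizontal axis) for each of the 28 genes in ETM embryos (left) and CT embryos (right), with bars of ± 1 SE. Filled points have an adjusted p below 0.05 and colours mark the 4 roles. Filled points number 13 above and 5 below 0 in ETM embryos, and 8 above and 2 below 0 in CT embryos.

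Cell type markers differed between the tissues as well. Over all tested genes 29.3% were higher and 29.6% lower in hypothalamus in ETM embryos, and 16.7% and 17.6% in CT embryos. Of 11 tested myelin markers 10 were higher in hypothalamus in ETM embryos and 10 in CT embryos, with none lower, at a median log2 difference of 2.24 in ETM and 1.48 in CT embryos. The list summed to 19123 to 30676 CPM in ETM hypothalamus and 11647 to 23187 CPM in CT hypothalamus, against 3816 to 5051 CPM in ETM whole brain and 3869 to 6096 CPM in CT whole brain. Of 10 endothelial and mural markers 6 were higher in hypothalamus in ETM and 9 in CT embryos, with none lower. Choroid plexus and pallium markers were mostly lower in hypothalamus. Of 8 choroid plexus markers 4 were lower in ETM and 7 in CT embryos, with none higher, and sums of 57.6 to 74.1 CPM in ETM hypothalamus and 45.3 to 51.0 CPM in CT hypothalamus, against 1245 to 1814 CPM in ETM whole brain and 792 to 1223 CPM in CT whole brain. Of 8 pallium markers 7 were lower in each, at a median of −4.12 in ETM and −3.98 in CT embryos, with 1 higher in ETM embryos. Fibroblast and meningeal markers differed between the sets. Of 7, 3 were lower and 2 higher in ETM embryos, at a median of 0.26, and 5 lower and 1 higher in CT embryos, at −0.85. Their sums were 694 to 1180 CPM in ETM hypothalamus, against 690 to 795 CPM in ETM whole brain. In CT embryos they were 950 to 1272 CPM in hypothalamus, against 1537 to 1726 CPM in whole brain. The part of these cells in the tissue differences of the 28 genes was not tested.

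Genes next to the set in the same pathways were counted by list. In whole brain 21.1% of all tested genes were called higher and 23.2% lower in ETM. In whole brain, of 13 other genes of sterol and isoprenoid synthesis 2 were higher and 3 lower in ETM than in CT embryos, with a median of 0.10. GGPS1, geranylgeranyl diphosphate synthase, measured 0.68 ± 0.13 and FNTB, a farnesyltransferase subunit, −0.71 ± 0.14. Of 20 genes of cholesterol uptake, storage and efflux 1 was higher and 9 lower, with a median of −0.09, among them the oxysterol-binding OSBP at −0.83 ± 0.09 and the receptor LRP1 at −0.86 ± 0.11. Of 26 other genes of fatty acid and glycerolipid synthesis 11 were higher and 6 lower, with a median of 0.19. AGPAT3, an acyltransferase of phospholipid synthesis, measured 0.57 ± 0.08 and SLC25A1, the mitochondrial citrate carrier, −0.64 ± 0.10. In hypothalamus none of the 13, 20 and 27 tested genes of these 3 lists was called for heat, nor were more than 0.0454% of all tested genes.

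The same lists were counted in the interaction and the tissue contrasts. Over all 16201 genes tested, 11.9% were called positive and 12.3% negative in the interaction. The shares called higher and lower in hypothalamus were 29.3% and 29.6% in ETM embryos, and 16.7% and 17.6% in CT embryos. In the interaction the calls were 1 positive and 3 negative of 13, 7 positive and 1 negative of 20, and 3 positive and 7 negative of 27, with AGPAT3 at −0.77 ± 0.14 and OSBP at 0.85 ± 0.16. In ETM embryos hypothalamus was higher than whole brain for 5 of the 13, 8 of the 20 and 8 of the 27, and lower for 4, 5 and 11. In CT embryos it was higher for 2, 3 and 6, and lower for 0, 3 and 4. ELOVL1, an elongase of very long fatty acids, measured 2.31 ± 0.16 in ETM and 1.58 ± 0.16 in CT embryos, and DHDDS, which makes the dolichol backbone, 0.73 ± 0.09 in ETM and 0.77 ± 0.09 in CT embryos.

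Rows without a symbol fall outside the rule but bear on the symbols not found. The row ENSGALG00010005534, on chromosome 2 at 10376086 to 10381197, carries a description that gives IDI1, isopentenyl diphosphate isomerase, as its closest protein. It had 151, 136 and 124 CPM in ETM hypothalamus, against 189, 183 and 184 CPM in CT hypothalamus, without overlap and not called (−0.44 ± 0.11, adjusted p = 0.233). In whole brain it measured 0.07 ± 0.10, and its interaction was called (−0.55 ± 0.14, adjusted p = 0.0168). In ETM embryos it was also called lower in hypothalamus than in whole brain, without overlap (−0.42 ± 0.10, adjusted p = 0.0032). In CT embryos that difference was 0.13 ± 0.10 and not called. The row ENSGALG00010025957, on chromosome 5 at 16311338 to 16321538, is described by FADS1, the partner desaturase of FADS2, and was called in no comparison. FADS1 also describes the rows ENSGALG00010025937 and ENSGALG00010025914 on chromosome 5. These were at no more than 0.529 CPM in any library and were not tested.

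Reads of some members could also belong to a neighbour, since the strand setting of the counting is not given in the sources used here. ACAT2 overlaps TCP1, CYP51A1 overlaps AKAP9, SCAP overlaps PTPN23, FDPS overlaps KHDC4, MVK overlaps MMAB and HMGCS1 overlaps NIM1K on the opposite strand, and MVD overlaps CYBA on the same strand. TCP1, a chaperonin subunit, had a mean count of 2243 per library, above the 1190.2 of ACAT2. The other neighbours had lower mean counts than the member.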

How the data were processed

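The authors deposited a table of raw read counts per gene, made with featureCounts of Subread 2.0.6 on build GRCg7b per the submitters' processing notes, which also list DESeq2 (given there as version 3.5.0). A second table that the authors deposited gives FPKM values of these genes. Neither the aligner, the strandedness used in counting nor the treatment of multi-mapping reads is stated in the sources used here. In 11 of 12 libraries the FPKM values equalled counts over gene length and 1 constant, within 0.1%, for 100% of values, and in ETM hypothalamus library 1 for 0.282%. Its FPKM values were turned back into reads (100% whole within 0.01, total 12161593) as an alternative. Pairs of libraries of 1 group differed by 5.8 to 37.4 chi-square units per degree of freedom, so none was counted as a duplicate.

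Tests on the counts used edgeR 4.0.16 under R 4.3.3 (TMM, filterByExpr by group, quasi-likelihood test, Benjamini-Hochberg over all genes tested, called at adjusted p below 0.05). Heat was tested on the 6 libraries of a tissue, and the interaction and tissue contrasts in 1 fit of 12 libraries with 4 groups. The 634 rows without a gene name were kept. The SE is the unshrunk log2 fold change over the square root of F, while the fold change printed is edgeR's. CPM values are means ± SD or single libraries. The fits were tested on simulated data.

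Values per library are printed for members called in a comparison, at most the 12 largest changes, and for SREBF1, SREBF2, INSIG1, INSIG2, HMGCS1 and SCD, and of other lists at most 3 called genes. The values per library of further members (such as FDFT1, ACACA, ACLY, ELOVL6, INSIG2 and DHCR7 in whole brain) were added after they were seen. The members and lists were chosen with earlier results of these data known. Alternatives were DESeq2 1.42.0, size factors by RLE, 2 other count filters, the replicate number as a block, 1 fit of all libraries, libraries with W-linked counts left out, the recovered reads, each library left out in turn and, added after the data were seen, separate scaling of chromosomes 11 to 39. Promoter sequences were not used here.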

Additional observations from a re-analysis of the deposited data

Results flagged for a closer look

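For 7 of the 28 genes the heat response differed between the tissues in the interaction test, as hypothalamus minus whole brain on the log2 scale with edgeR's adjusted p. This share is near the 24.2% of 16201 genes called in that test. The difference was −1.001 for MSMO1 (adjusted p = 0.0037), −0.71 for HMGCS1 (0.0174), −0.46 for DHCR7 (0.0139) and −0.50 for ELOVL6 (0.0449). It was 0.84 for PMVK (0.0326), 0.63 for SCAP (0.0209) and 0.57 for SREBF2 (0.0374).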

How the results depend on the processing

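In hypothalamus DESeq2 called 1 member lower, against 0 in the main analysis, and the count of all genes called there (7) was 187 with DESeq2, 52 with no low-count filter, 83 in 1 fit of all 12 libraries, 2 with the replicate block, and 0 with the recovered reads or without the libraries with W-linked counts. There the log2 fold change of SCD turned to −0.0383 with the replicate block, that of INSIG2 to −0.000425 without the W-linked libraries and −0.00624 with the recovered reads, and those of SREBF1 and SREBF2 to 0.0714 and 0.127 with the recovered reads. In whole brain 1 member in place of 3 was higher with the replicate block and with chromosome-class scaling, where HMGCS1 turned to −0.0374. In the interaction the 4 negative calls became 2 with no low-count filter, 1 with the replicate block and 1 with chromosome-class scaling, and the 3 positive calls became 0 with the replicate block, 1 without the W-linked libraries and 0 with the recovered reads. Its count of all genes (3917) was 2053 with the replicate block. In CT embryos the 2 members lower in hypothalamus became 0 with the recovered reads and 1 with chromosome-class scaling. In ETM embryos the 5 lower became 3 with chromosome-class scaling, and SREBF1 (0.02) turned to −0.0410 with the replicate block and −0.29 with chromosome-class scaling. Leaving out 1 library at a time gave 0 to 39 genes called in hypothalamus, 2340 to 4195 in the interaction, 1 to 4 members higher in whole brain, 0 to 4 positive and 2 to 4 negative in the interaction, and 0 to 2 lower in CT hypothalamus. It moved HMGCS1 in whole brain between −0.0324 and 0.155, SCD in hypothalamus between −0.29 and 0.16, SREBF1 there between −0.485 and 0.0682, and SREBF1 in the ETM tissue contrast between −0.34 and 0.21. The cause of these changes was not tested. Same-numbered libraries did not deviate together between treatments (correlations from −0.355 to 0.0446 in hypothalamus and −0.0369 to −0.0181 in whole brain). Between tissues their correlations ran from −0.271 to 0.130 in ETM and −0.0715 to 0.0160 in CT embryos. The numbers were therefore not taken to pair the libraries. The 3 libraries per group limit every comparison, and a member that was not called is not shown to be unchanged.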
